A study of Mus musculus with 8 samples.

Results

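Cholesterol synthesis genes of the central amygdala are described here through 7 genes, taken as the rows of the count table whose symbol is Hmgcs1, Sqle, Insig1, Idi1, Lss, Cyp51 or Dhcr7. They are 7 of the 18983 genes in the table, and all 7 passed the filter on low counts that left 15186 genes for testing. The name under which they were grouped also speaks of uptake. None of the 7 takes up cholesterol: 6 are synthesis enzymes and Insig1 encodes a sterol-dependent brake on them, so receptors and transporters are given below from a separate list.

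The tissue was the central amygdala, a small forebrain nucleus that takes part in fear and appetite, from 129SV mice aged 7 months. Mice received a high fat diet for 20 weeks or normal chow for the same time, with 4 mRNA libraries per diet that carry the numbers 1, 2, 5 and 8. The labels name no transgene, mutation or drug in either group, and they leave unsaid whether the libraries of a diet came from separate animals. The p-values therefore reflect the spread between these samples alone, which may be technical. Library totals were 17451162 to 19562429 estimated read counts.

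Brain cholesterol is made almost wholly within the brain, because lipoproteins of the blood do not cross the blood-brain barrier, and much of it lies in myelin. Synthesis runs from acetyl-CoA through mevalonate and isoprenoids to squalene, then through lanosterol to cholesterol. When sterols in the endoplasmic reticulum are low, the protein SCAP carries the transcription factor SREBP-2 to the Golgi, where it is released by proteolysis and switches on the genes of the pathway. When sterols are high, INSIG proteins hold SCAP back and the genes are transcribed less. Insig1 is itself an SREBP target, so it is transcribed together with the enzymes that its product restrains.

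The promoter sequences are shown because shared control by SREBP is what the 7 genes are known for. RefSeq windows of GRCm38.p6, to which mm10 corresponds, were matched by symbol for 6 of the 7 genes. Each window runs from 250 bases before to 50 bases after an annotated start, along the transcript strand, and Dhcr7 has 3 starts. Windows are given for the 2 genes with a sterol regulatory element match, and for Insig1 and Lss as examples without one. Capitals mark 4 motifs: TCACCNCA, letters of the sterol regulatory element to which SREBP binds; CCAAT, to which the partner factor NF-Y binds; GGGCGG, the GC box of Sp1; and CACGTG, an E-box. Both strands were searched, so TGNGGTGA, ATTGG and CCGCCC count as matches. The windows are Hmgcs1 at chr13:119690101-119690400 on the plus strand, Cyp51 at chr5:4104648-4104947 on the minus strand, Insig1 at chr5:28071162-28071461 on the plus strand and Lss at chr10:76531355-76531654 on the plus strand.
Hmgcs1: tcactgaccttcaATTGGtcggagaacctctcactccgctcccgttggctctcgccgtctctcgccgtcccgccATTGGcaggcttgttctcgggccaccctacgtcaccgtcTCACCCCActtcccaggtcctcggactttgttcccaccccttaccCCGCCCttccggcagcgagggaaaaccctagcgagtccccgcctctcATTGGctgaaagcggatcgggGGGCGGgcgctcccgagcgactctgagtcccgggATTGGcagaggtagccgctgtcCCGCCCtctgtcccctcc
Cyp51: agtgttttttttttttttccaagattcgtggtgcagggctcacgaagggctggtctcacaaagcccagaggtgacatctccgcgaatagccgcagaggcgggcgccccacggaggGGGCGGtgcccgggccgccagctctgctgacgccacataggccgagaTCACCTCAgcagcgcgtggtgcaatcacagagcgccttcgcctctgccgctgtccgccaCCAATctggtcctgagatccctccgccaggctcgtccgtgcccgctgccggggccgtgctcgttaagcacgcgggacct
Insig1: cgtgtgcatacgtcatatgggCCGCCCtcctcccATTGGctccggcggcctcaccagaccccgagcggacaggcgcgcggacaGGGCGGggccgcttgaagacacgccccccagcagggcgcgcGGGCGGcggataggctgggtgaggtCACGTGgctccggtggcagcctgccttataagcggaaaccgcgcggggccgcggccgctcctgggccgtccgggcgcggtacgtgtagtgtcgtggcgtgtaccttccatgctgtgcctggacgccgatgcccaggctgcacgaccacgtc
Lss: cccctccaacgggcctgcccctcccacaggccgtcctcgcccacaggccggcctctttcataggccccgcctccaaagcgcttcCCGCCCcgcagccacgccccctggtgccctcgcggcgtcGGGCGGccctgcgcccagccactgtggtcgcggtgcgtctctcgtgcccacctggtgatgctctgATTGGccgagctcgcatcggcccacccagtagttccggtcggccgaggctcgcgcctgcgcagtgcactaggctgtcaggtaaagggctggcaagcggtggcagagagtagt

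The sterol regulatory element letters were present in 2 of the 6 genes and in 2 of their 8 windows, against 4.42% of all 32851 windows of this length. With the transcript start counted as 0, Hmgcs1 held TCACCCCA from base -137 and Cyp51 held TCACCTCA from base -88. CCAAT was present in all 6 genes and in 6 of their 8 windows, against 37.4% of all windows. GGGCGG was also present in all 6 genes and in 7 of the 8 windows, against 35.7%. CACGTG was found in Insig1 at base -101 and in the second Dhcr7 window at base -164, against 7.15% of all windows. No match shared bases with a match of another motif. The motifs were chosen after the sequences had been read, and a match describes letters in these windows and not binding. A gene without a match has no such letters in this window.

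**Figure D1:**
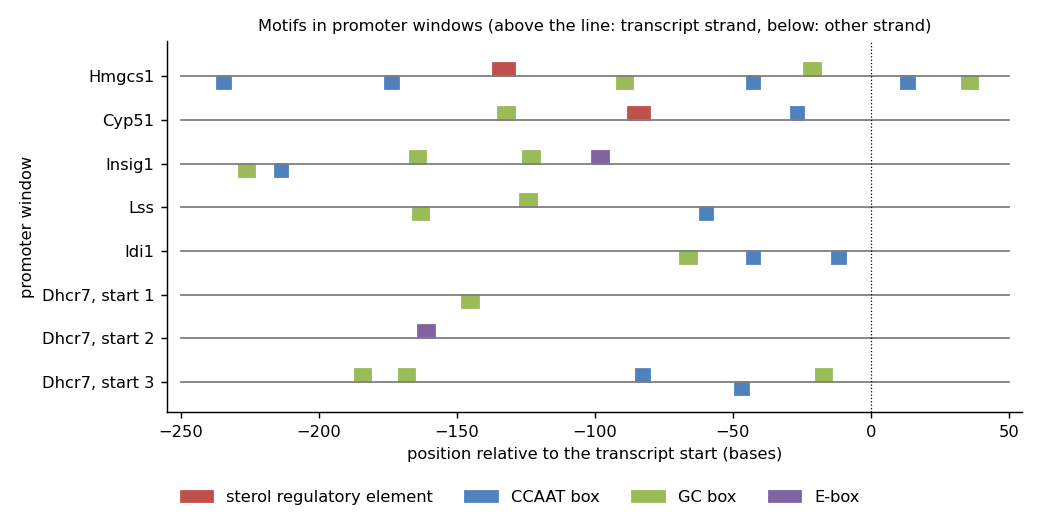
Positions of the 4 motifs in the 8 promoter windows of 6 genes, in bases from the transcript start. Blocks above a line lie on the transcript strand and blocks below it on the other strand. The sterol regulatory element letters appear in the Hmgcs1 window at -137 and in the Cyp51 window at -88, while CCAAT and GC boxes appear in every gene.

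The 7 genes lie at 7 loci on 5 chromosomes of GRCm38.p6. Hmgcs1 (Entrez 208715) spans chr13:119690351-119708260 and Idi1 (319554) spans chr13:8885606-8892396, both on the plus strand. Sqle (20775) spans chr15:59315092-59331193, Lss (16987) spans chr10:76531565-76557139 and Dhcr7 (13360) spans chr7:143823167-143848410, all on the plus strand. Insig1 (231070) spans chr5:28071412-28078662 on the plus strand and Cyp51 (13121) spans chr5:4080674-4104697 on the minus strand. In the GENCODE annotation, 4 of the 7 share bases with a gene on the opposite strand: Lss over 11268 bases, Hmgcs1 over 6190, Idi1 over 323 and Cyp51 over 166. The Lss and Hmgcs1 partners are annotated as antisense genes and the Cyp51 partner is the coding gene Akap9. The overlaps are of gene spans, and overlap of exons was not examined. No strand setting of the counting was found. How far reads within the shared bases were assigned to the right gene was not tested. Estimated counts of Idi1 and Cyp51 were not whole in any of the 8 libraries, as happens when reads are divided among similar sequences, and their values carry that uncertainty. Those of Sqle, Insig1 and Dhcr7 were whole in 8 of 8.

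Abundance is comparable between genes per length, in the authors' deposited mean TPM, which is scaled for transcript length and library total. Hmgcs1 was highest at 190.6 TPM with high fat diet and 166.8 TPM with chow. The average of these values lay above 94.4% of the 18983 genes in the table, tested or not. Insig1 followed at 64.8 and 80.5 TPM, then Sqle at 55.6 and 47.5, Dhcr7 at 45.2 and 50.3, and Cyp51 at 39.7 and 40.5. Lss at 15.4 and 16.5 TPM and Idi1 at 9.63 and 9.64 TPM were the lowest. Sqle, Dhcr7 and Cyp51 therefore stood close together, and no SD is available for these deposited means.

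High fat diet and chow differed little in the 7 genes, compared in CPM, which are counts scaled by the TMM-adjusted library total. The clearest difference was in Insig1, with means of 65.5 ± 10.7 CPM in the high fat libraries and 84.3 ± 11.8 CPM in the chow libraries (SD, n = 4 each), 0.777-fold, and whose 4 high fat libraries all lay below the 4 chow libraries. Hmgcs1 and Sqle had slightly higher means with high fat diet, at 1.11-fold and 1.13-fold, and the other 4 genes had slightly lower means. None of the 7 passed the test: edgeR's quasi-likelihood test with Benjamini-Hochberg adjustment called 0 of 7 at an adjusted p under 0.05, as it called 0 of all 15186 genes, or 0%. The smallest adjusted p in the table was 0.753. Before adjustment, 1 of the 7, Insig1, had a p under 0.05, where 649 genes, or 4.27%, did so in the whole table. DESeq2, limma-voom and limma-voom with sample quality weights also called 0 genes, with 990, 652 and 4492 genes at an unadjusted p under 0.05. Of the 7, DESeq2 and limma-voom each had 1 there and the quality weights had 3, Insig1, Sqle and Lss, in a fit that weighted chow replicate 1 at 0.0865 and high fat replicate 2 at 3.38. The 7 log2 fold changes had a median of -0.07 with 5 below 0, beside a median of -0.01 and 51.8% below 0 over all genes tested.

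**Figure D2:**
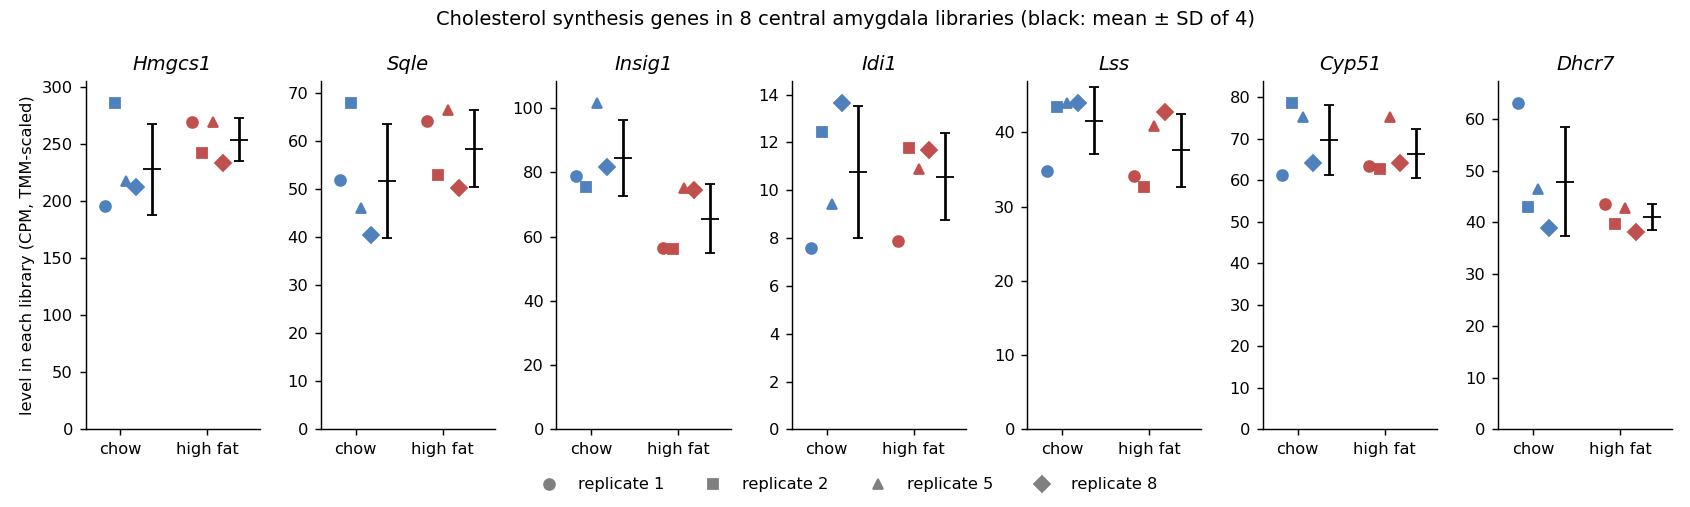
Level of each of the 7 genes in each library, in TMM-scaled CPM on axes that start at 0, with chow in blue, high fat diet in red, the symbol giving the replicate number and black bars the mean ± SD of 4. The diets do not overlap in Insig1, where the highest high fat library is at 75.0 CPM and the lowest chow library at 75.5 CPM. They overlap in the other 6 genes.

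Hmgcs1 encodes the cytosolic HMG-CoA synthase, which makes HMG-CoA on the way to mevalonate. In high fat replicates 1, 2, 5 and 8 its level was 269.7, 242.6, 269.7 and 233.7 CPM. In chow replicates 1, 2, 5 and 8 it was 196.0, 286.2, 217.7 and 212.4 CPM. The 4 high fat libraries lay above 3 of the 4 chow libraries, and chow replicate 2 was the highest of all. The log2 fold change, high fat diet over chow, was 0.16 ± 0.14 (SE; 95% interval -0.17 to 0.48; edgeR adjusted p = 0.788; exact permutation p = 0.200, two-sided). Over single libraries left out it was lowest without chow replicate 1, at 0.08, and highest without chow replicate 2, at 0.28 (edgeR adjusted p = 0.814 and 0.237).

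Idi1 encodes isopentenyl-diphosphate isomerase, which supplies the building block of farnesyl diphosphate further down the pathway. It was the least abundant of the 7, at 7.89, 11.8, 10.9 and 11.7 CPM with high fat diet and 7.61, 12.4, 9.43 and 13.7 CPM with chow, in the same order of replicates. Replicate 1 was the lowest library of each diet, and the diets overlapped throughout. Its log2 fold change was -0.03 ± 0.22 (SE; 95% interval -0.54 to 0.48; edgeR adjusted p = 0.972; exact permutation p = 0.943). The sign turned with any of 3 libraries left out, to 0.09 without high fat replicate 1, 0.05 without chow replicate 2 and 0.11 without chow replicate 8. Idi1 rested on 141 to 247 estimated counts per library, where counting error alone reached 8.41%, against 1.39% at the highest Hmgcs1 count.

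Sqle encodes squalene epoxidase, the first oxygen-requiring and a rate-limiting step toward sterols. In the same order of replicates, its level was 64.1, 52.9, 66.4 and 50.2 CPM under high fat diet, and 51.9, 68.0, 46.0 and 40.5 CPM under chow. Chow replicate 2 was again the highest of the 8 libraries, and chow replicates 8 and 5 were the lowest. The difference was 0.18 ± 0.18 on the log2 scale (SE; 95% interval -0.23 to 0.59; edgeR adjusted p = 0.798; exact permutation p = 0.371). Over single libraries left out it ranged from 0.08 without chow replicate 8 to 0.34 without chow replicate 2 (edgeR adjusted p = 0.893 and 0.270), and without chow replicates 5 and 8 together it was -0.04.

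Lss encodes lanosterol synthase, which closes oxidosqualene into the first sterol. Its level was 34.1, 32.7, 40.9 and 42.7 CPM with high fat diet and 34.8, 43.4, 44.0 and 44.0 CPM with chow, in the same order. High fat replicates 1 and 2 and chow replicate 1 were low, and the other 3 chow libraries stood close together. On the log2 scale the difference was -0.14 ± 0.14 (SE; 95% interval -0.45 to 0.16; edgeR adjusted p = 0.790; exact permutation p = 0.171). Leaving out chow replicate 1 gave -0.23 and leaving out high fat replicate 2 gave -0.08, the ends of the range over single libraries (edgeR adjusted p = 0.659 and 0.940).

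Cyp51 encodes lanosterol 14-alpha-demethylase, the first enzyme to act on lanosterol in this route. It varied least of the 7, at 63.5, 62.7, 75.3 and 64.2 CPM with high fat diet and 61.3, 78.7, 75.2 and 64.1 CPM with chow, in the same order. High fat replicate 5 and chow replicates 2 and 5 stood above the other 5 libraries, which lay between 61.3 and 64.2 CPM. Its log2 fold change was -0.07 ± 0.13 (SE; 95% interval -0.36 to 0.21; edgeR adjusted p = 0.877; exact permutation p = 0.629). Without chow replicate 2 it was -0.01, and without high fat replicate 5 it was -0.14, both below 0.

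Dhcr7 encodes 7-dehydrocholesterol reductase, the last step to cholesterol in the Kandutsch-Russell route. Its level was 43.5, 39.7, 42.7 and 38.3 CPM with high fat diet and 63.1, 43.1, 46.5 and 39.0 CPM with chow, in the same order. Chow replicate 1 stood above the other 7 libraries, which lay between 38.3 and 46.5 CPM. The diets differed by -0.22 ± 0.16 on the log2 scale (SE; 95% interval -0.58 to 0.14; edgeR adjusted p = 0.754; exact permutation p = 0.257). Without chow replicate 1 the value was -0.07 (edgeR adjusted p = 0.786).

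Insig1 encodes the protein that retains SCAP in the endoplasmic reticulum when sterols are plentiful. In high fat replicates 1, 2, 5 and 8 its level was 56.4, 56.1, 75.0 and 74.5 CPM. In chow replicates 1, 2, 5 and 8 it was 78.7, 75.5, 101.6 and 81.5 CPM. High fat replicates 1 and 2 were low and chow replicate 5 was high. The closest libraries of the diets, high fat replicate 5 and chow replicate 2, were 75.0 and 75.5 CPM. Of the 7 genes, 1 was lower with high fat diet without overlap, against 0.718% of all genes tested in that direction and 1.36% in either direction. The log2 fold change was -0.36 ± 0.15 (SE; 95% interval -0.71 to -0.01; edgeR adjusted p = 0.753). Its unadjusted edgeR p of 0.0430 ranked 470 among the 15186. The exact permutation p over libraries was 0.0286, two-sided, the smallest that 4 against 4 can give. Any gene whose diets do not overlap has this permutation p, so it restates that separation and adds nothing to it.

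The direction of Insig1 held under the alternatives run, with log2 fold changes from -0.45 with quality weights to -0.23 without chow replicates 5 and 8. The unadjusted edgeR p rose to 0.112 without high fat replicate 1, 0.115 without high fat replicate 2, 0.128 without chow replicate 5 and 0.0655 without chow replicate 8. Without chow replicates 5 and 8 together it was 0.242. The adjusted p ranged from 0.0797, from limma-voom with quality weights, to 0.975 without high fat replicate 5 in edgeR. In bulk tissue, fewer cells of a type and less RNA per cell cannot be told apart.

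**Figure D3:**
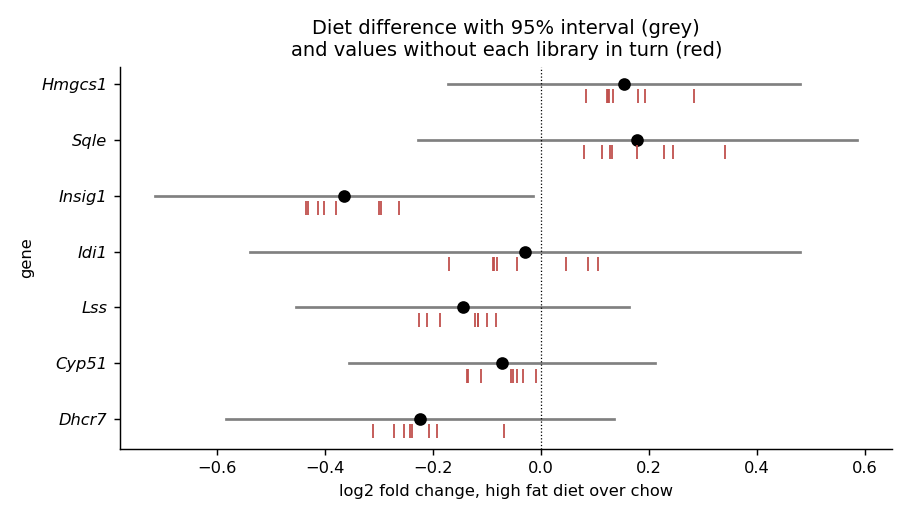
Log2 fold change of each gene, high fat diet over chow, as a black point with its 95% interval in grey, and the 8 values without each library in turn as red ticks. The Insig1 interval runs from -0.71 to -0.01 and its 8 ticks all lie below 0, while the intervals of the other 6 genes cross 0 and the ticks of Idi1 fall on both sides.

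The level of each enzyme relative to Insig1 within a library was compared as a description, with no test. Hmgcs1 over Insig1 was 4.78, 4.33, 3.59 and 3.14 in high fat replicates 1, 2, 5 and 8 and 2.49, 3.79, 2.14 and 2.61 in chow replicates 1, 2, 5 and 8. Sqle over Insig1 was 1.14, 0.944, 0.885 and 0.674 with high fat diet and 0.659, 0.900, 0.453 and 0.497 with chow. Lss over Insig1 was 0.604, 0.583, 0.545 and 0.573 with high fat diet and 0.442, 0.575, 0.433 and 0.539 with chow. Cyp51 over Insig1 was 1.13, 1.12, 1.00 and 0.860 with high fat diet and 0.779, 1.04, 0.741 and 0.786 with chow. In these 4 ratios chow replicates 1, 5 and 8 lay below all high fat libraries, and chow replicate 2 lay among the high fat ones. Insig1 is the denominator of all 4 and was itself lower in every high fat library than in any chow library. The ratios are therefore not separate observations on the enzymes. Idi1 over Insig1 was 0.140 to 0.210 with high fat diet, and chow replicates 1 and 5 lay below that range at 0.0964 and 0.0928. Dhcr7 over Insig1 was 0.513 to 0.771 with high fat diet, with chow replicate 1 above that range at 0.802 and chow replicates 5 and 8 below it at 0.458 and 0.478. Hmgcs1 over Sqle stayed between 3.78 and 5.24 in the 8 libraries, and the diets overlapped.

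Among the 7 genes, the libraries did not order the same way. Of the 21 pairs, 13 had a positive and 8 a negative Pearson correlation of log2 CPM over the 8 libraries, and 0 had an adjusted permutation p under 0.05. The 8 libraries of both diets were pooled in these correlations. Hmgcs1 and Sqle had r = 0.840 (permutation p = 0.0119, adjusted over 21 pairs 0.125) and rho = 0.833 (permutation p = 0.0154, adjusted 0.162), with r = 0.989 without chow replicates 1 and 2. Insig1 and Lss had r = 0.764 (permutation p = 0.0195, adjusted 0.137) and rho = 0.833 (permutation p = 0.0154, adjusted 0.162), with r = 0.613 without high fat replicate 2 and chow replicate 5. Idi1 and Dhcr7 ran opposite, with r = -0.760 (permutation p = 0.0112, adjusted 0.125) and rho = -0.738 (permutation p = 0.0458, adjusted 0.321), and r = -0.738 without high fat replicate 1 and chow replicate 1. The libraries left out differed between pairs and were extremes of the first-named gene. They were the lowest and highest for Hmgcs1 and Insig1, and the lowest of each diet for Idi1. These r values are therefore trimmed on a gene of the pair itself and are not a separate check. With 4 libraries per diet, no correlation was computed within a diet. Chow replicate 1 held the lowest Hmgcs1, Idi1 and Cyp51 and the highest Dhcr7, while chow replicate 2 held the highest Hmgcs1, Sqle and Cyp51.

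The spread of the 7 genes was low to middling for this table. The SD of log2 CPM over the 8 libraries was 0.14 for Cyp51, 0.18 for Lss, 0.19 for Hmgcs1, 0.23 for Dhcr7, 0.27 for Sqle, 0.28 for Insig1 and 0.31 for Idi1. The median over all genes tested was 0.31. The highest library exceeded the lowest by 1.28 times in Cyp51 and by 1.81 times in Insig1, the ends of the range among the 7.

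Libraries also differed in markers of cell types around the nucleus. Each score is the mean over a marker list of log2 CPM minus the gene's mean over the 8 libraries. Of the pallial excitatory neuron markers, cells of the neighbouring cortex and basolateral amygdala, 8 of 8 had positive log2 fold changes with high fat diet, at a median of 0.90. Their score was 1.10, 0.85, 0.99 and 0.04 in high fat replicates 1, 2, 5 and 8 and -0.85, 1.08, -1.54 and -1.67 in chow replicates 1, 2, 5 and 8. Their summed level was 2452 to 6336 CPM with high fat diet and 1112 to 4739 CPM with chow. Of the oligodendrocyte and myelin markers, 12 of 12 had negative log2 fold changes, at a median of -1.02, with summed levels of 4339 to 9381 CPM and 3328 to 20358 CPM. Their score was -0.42, -0.34, -0.89 and 0.18 with high fat diet and 0.71, -1.32, 1.26 and 0.81 with chow. No marker of these 2 lists was at 0 in any library, and edgeR called 0 of them with all libraries. Without chow replicate 2 it called 3 of the 8 excitatory markers and 1 of the 12 myelin markers, beside 116 of all 15303 genes tested in that fit. All 10 central amygdala markers were detected, with summed levels of 1152 to 1883 CPM with high fat diet and 1171 to 2873 CPM with chow, and 9 of the 10 had negative log2 fold changes, at a median of -0.73. All tested markers of 4 other lists were negative too, with medians of -1.95 over 6 thalamic neuron markers, -1.81 over 6 choroid plexus and ependyma markers, -1.64 over 8 striatal spiny neuron markers and -0.39 over 8 microglia markers. Negative values were also found for 5 of 7 oligodendrocyte precursor, 5 of 6 endothelial and 5 of 9 astrocyte markers, at medians of -0.26, -0.12 and -0.03. edgeR called 0 markers of these lists, and 1 thalamic marker was at 0 in at least 1 library. The choroid plexus and ependyma result rested on chow replicate 1, without which 4 of 6 were positive at a median of 0.30. The thalamic score was 2.67 and 1.39 in chow replicates 5 and 8. It was -0.49 and -0.51 in chow replicates 1 and 2, within the high fat range of -1.12 to -0.35. Without chow replicates 5 and 8, 2 of 6 thalamic markers were positive, at a median of -0.50. Striatal and microglia medians stayed negative in these fits.

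Hmgcs1 and Sqle were highest in chow replicate 2, high fat replicate 1 and high fat replicate 5, the 3 libraries with the highest excitatory scores. Insig1 was highest in chow replicate 5, which had the highest myelin score, but the other libraries did not follow that order. Chow replicate 2 had the lowest myelin score, -1.32, with Insig1 at 75.5 CPM, above all high fat libraries. The lowest Insig1 levels, 56.4 and 56.1 CPM in high fat replicates 1 and 2, went with myelin scores of -0.42 and -0.34. Insig1 ran closer to other scores. Libraries with Insig1 at 75.5 CPM or less had excitatory scores of 0.04 to 1.10. Chow replicates 1, 5 and 8, with more Insig1, had excitatory scores of -0.85, -1.54 and -1.67. The thalamic score was lowest in high fat replicates 1 and 2, at -1.12 and -0.96. It was highest in chow replicates 5 and 8, at 2.67 and 1.39, where Insig1 was also highest. The astrocyte score stayed between -0.16 and 0.21 in all 8 libraries, with summed levels of 3973 to 5187 CPM with high fat diet and 3763 to 4438 CPM with chow. The part of cell composition in the values of the 7 genes was not tested.

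**Figure D4:**
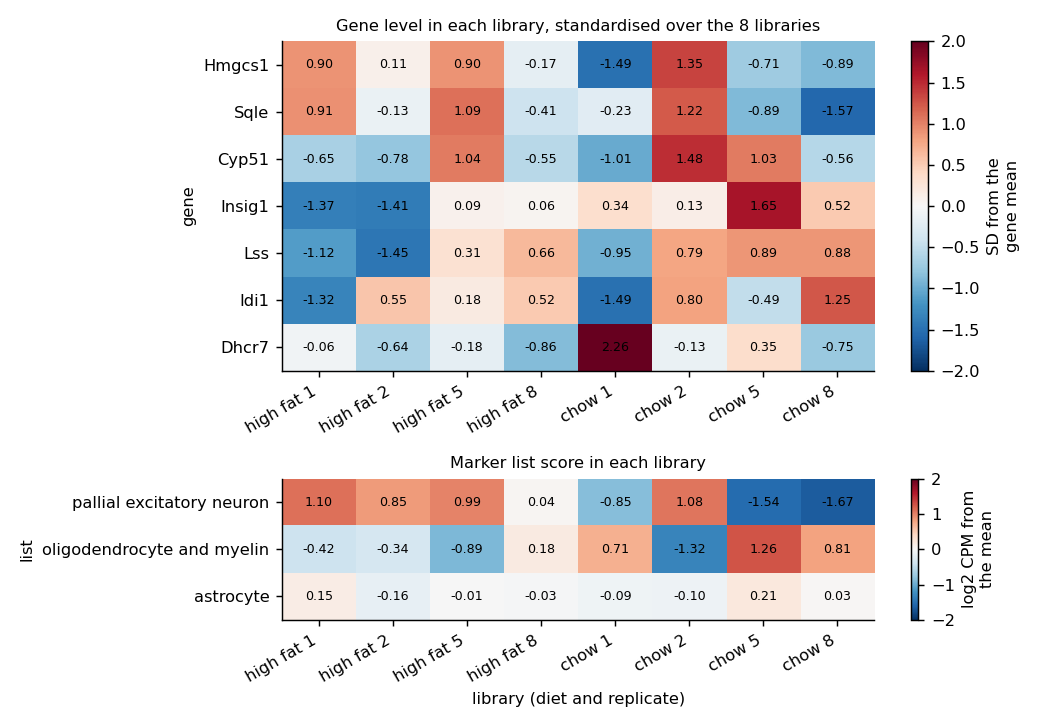
Upper panel, log2 CPM of each of the 7 genes in each library as SD from the gene's mean over the 8 libraries. Lower panel, scores of 3 marker lists in log2 CPM from the mean. Chow replicate 2 is at 1.35, 1.22 and 1.48 in Hmgcs1, Sqle and Cyp51 and at 1.08 in the excitatory score, and chow replicate 1 is at 2.26 in Dhcr7.

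The other enzymes of cholesterol synthesis showed as little difference between the diets. Of 17 listed, 16 were tested, 9 had positive and 7 negative log2 fold changes, the median was 0.01 and 0 were called by edgeR. Pmvk and Mvk, the kinases that act on mevalonate, had log2 fold changes of -0.26 ± 0.16 and -0.25 ± 0.21 (SE; edgeR adjusted p = 0.753 and 0.762). Msmo1, a sterol C4 demethylation enzyme and the most abundant of the list, had 0.11 ± 0.13 (SE; edgeR adjusted p = 0.834).

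Fdps and Fdft1, which make farnesyl diphosphate and squalene, were chosen after their values were seen. Both were highest in chow replicate 1, at 67.1 and 133.1 CPM, as Dhcr7 was, and their 7 other libraries spanned 38.1 to 56.5 and 90.2 to 123.8 CPM. Hmgcs1, Idi1 and Cyp51 were lowest in that same library. Chow replicate 1 therefore held both the top and the bottom of the range for enzymes of 1 pathway. That library also had the highest choroid plexus and ependyma score, 3.25, against -1.80 to 0.94 in the other 7, and the part of that in these values was not tested.

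The genes of sterol sensing and SREBP processing were evenly split, with 6 positive and 5 negative log2 fold changes among 11 tested, a median of 0.02 and 0 called by edgeR. Srebf2, the gene of SREBP-2, was 241.1, 202.5, 218.8 and 186.1 CPM with high fat diet and 270.2, 211.9, 180.4 and 174.6 CPM with chow, a log2 fold change of 0.02 ± 0.17 (SE; edgeR adjusted p = 0.975). Srebf1, which drives fatty acid genes more than cholesterol genes, averaged 80.5 ± 14.5 CPM in the high fat libraries and 123.1 ± 40.8 CPM in the chow libraries (SD, n = 4 each). It was the 1 gene of the list with an unadjusted p under 0.05. Its log2 fold change was -0.61 ± 0.26 (SE; edgeR adjusted p = 0.753), and chow replicate 2 lay below all high fat libraries at 67.3 CPM. Insig2, the second INSIG gene, had a log2 fold change of 0.17 ± 0.12 (SE; edgeR adjusted p = 0.754), opposite in sign to Insig1, and was also chosen after its value was seen. Erlin2 and Mbtps2, an INSIG-associated degradation factor and the site-2 protease of SREBP, had -0.19 ± 0.11 and 0.25 ± 0.18 (SE), and Nfe2l1, the most abundant of the list, had -0.07 ± 0.13 (SE).

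Genes of uptake and transport into the cell numbered 14 tested, with 5 positive and 9 negative log2 fold changes, a median of -0.05 and 0 called by edgeR. Npc1, which exports cholesterol from lysosomes, had -0.47 ± 0.23 (SE; edgeR adjusted p = 0.753), and Gramd1b, a sterol transfer protein at membrane contacts, had 0.17 ± 0.15 (SE; edgeR adjusted p = 0.774).

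Genes of efflux and lipoproteins had 10 of 11 negative log2 fold changes, with a median of -0.28 and 0 called by edgeR. Apod, an apolipoprotein made by glia, was 239, 254, 226 and 322 CPM with high fat diet and 579, 173, 679 and 493 CPM with chow, a log2 fold change of -0.89 ± 0.36 (SE; edgeR adjusted p = 0.753). Chow replicate 2 lay below all high fat libraries and the other 3 chow libraries lay above them. Without chow replicate 2 the log2 fold change was -1.16 with an edgeR adjusted p of 0.0401. That fit called 116 of all 15303 genes tested. Apoe, the main carrier of brain cholesterol, had -0.28 ± 0.20, and the LXR genes Nr1h3 and Nr1h2 had -0.46 ± 0.29 and -0.35 ± 0.23 (SE; edgeR adjusted p 0.753 to 0.754). Without chow replicate 1 the list had 8 of 11 negative and a median of -0.10. In chow replicate 2 the myelin score was -1.32 and the microglia score -0.33, while chow replicates 1, 5 and 8 had microglia scores of 0.42, 0.37 and 0.24. The part of these cells in the list was not tested.

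In the remaining branches, edgeR called 0 genes of 3 lists. Of 8 esterification and oxysterol enzymes, 5 had positive and 3 negative log2 fold changes, with a median of 0.01, and without chow replicate 1 the split was 2 and 6. Cyp7b1, which hydroxylates oxysterols, averaged 16.4 ± 2.87 CPM in the high fat libraries and 12.1 ± 1.32 CPM in the chow libraries (SD, n = 4 each), a log2 fold change of 0.44 ± 0.16 (SE; edgeR adjusted p = 0.753). Cyp46a1, the neuronal 24-hydroxylase by which brain cholesterol leaves, had 0.03 ± 0.21 (SE; edgeR adjusted p = 0.973), while Cyp27a1 and Cyp39a1 had -0.93 ± 0.46 and -0.55 ± 0.38 (SE). Of 9 isoprenoid branch genes, 5 were positive and 4 negative at a median of 0.02, with the farnesyltransferase subunit genes Fnta and Fntb at -0.28 ± 0.17 and -0.20 ± 0.17 and the coenzyme Q gene Coq2 at 0.12 ± 0.11 (SE). Of 12 fatty acid genes that SREBP factors also control, 10 were negative at a median of -0.13. They included the desaturase genes Scd1 at -0.74 ± 0.30 (SE; edgeR adjusted p = 0.753) and Scd2 at -0.49 ± 0.23, and the citrate lyase gene Acly at -0.34 ± 0.19 (SE).

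**Figure D5:**
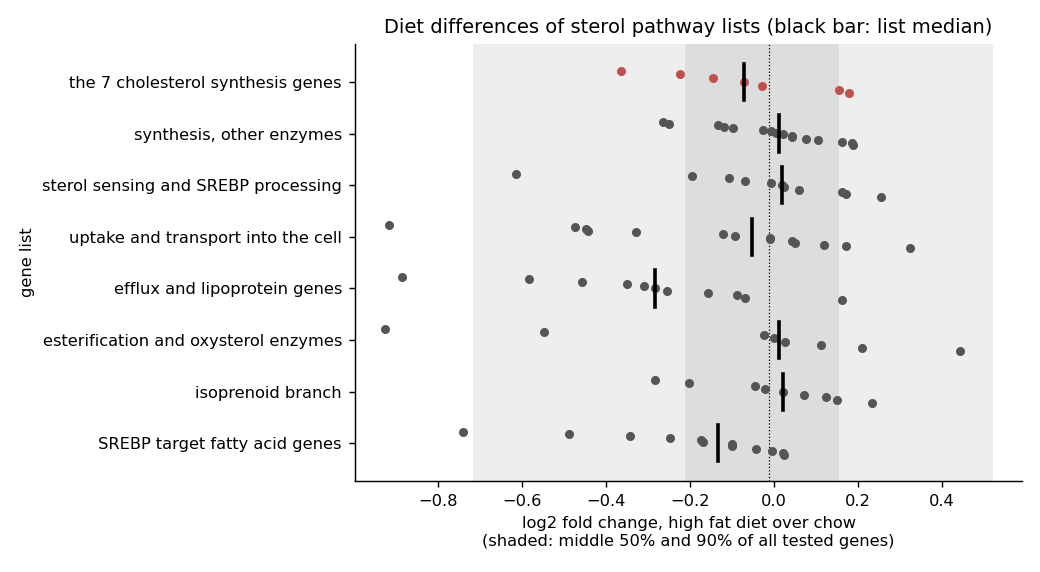
Log2 fold change, high fat diet over chow, of each tested gene in the 7 cholesterol synthesis genes (red) and in 7 related lists (grey), with black bars for list medians and shading for the middle 50% and 90% of all genes tested, whose median is the dotted line. Medians run from -0.28 in the efflux list to 0.02 in the sensing and isoprenoid lists, and the 7 genes lie at -0.07.

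The genes whose profile over the 8 libraries was most like the mean standardised profile of the 7 were Map3k9, Abcc8, Gm36722, Kpna2 and Lacc1. Likeness was the root mean square difference of profiles in SD units, and it was 0.529, 0.536, 0.555, 0.557 and 0.585 for these 5, out of 13193 genes whose mean reached 50 counts. Map3k9 was 67.4, 60.8, 90.2 and 66.3 CPM with high fat diet and 60.1, 89.8, 79.7 and 66.2 CPM with chow, highest in high fat replicate 5 and chow replicate 2. Of the 7 genes themselves, Cyp51 was nearest to the mean profile at 0.529, followed by Lss at 0.691, Insig1 at 0.811, Hmgcs1 at 0.812, Sqle at 0.851, Idi1 at 0.890 and Dhcr7 at 1.08. Each of the 7 contributes to the mean profile, which outside genes do not, so the 2 sets of values are not comparable. When the mean had to reach 200 counts, 3 of the 5 genes were the same.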

How the data were processed

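Poly(A) mRNA of the central amygdala was sequenced as single-end reads, per the labels' protocols. The authors deposited estimated counts per gene and library, of which 35.2% were not whole at a tolerance of 1e-06. The same table holds the authors' mean FPKM, not used here, and mean TPM per diet, per the file headers. The submitters' processing notes name Bowtie2 2.2.5, RSEM 1.2.8 and mm10. The annotation, and whether strand was used, is not given in the sources used here. Deposited mean counts matched the library means within 3.6e-12.

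Counts were rounded to whole numbers, filtered with filterByExpr, scaled by TMM and tested across 15186 genes with edgeR 4.0.16 in R 4.3.3 (two-sided quasi-likelihood test, no covariate, Benjamini-Hochberg adjusted p under 0.05). The SE is derived from the fold and the F statistic, with a prior count of 2 for log2 CPM. The exact permutation test used the 70 assignments of 8 libraries. The fit was tested on simulated data. The 7 genes, the lists and the rule for named genes were chosen with earlier results of these data known. That rule takes all 7 genes, up to 3 genes of the smallest p and the most abundant gene of each list, and the 5 genes of most similar profile. Some genes that it takes are not reported here. Deviations of same-numbered libraries from their diet means correlated at 0.01, -0.04, 0.04 and 0.39 in replicates 1, 2, 5 and 8, so the numbers were not taken to pair the libraries. Within a diet, every pair of libraries differed by more than sampling noise. Alternatives were upper-quartile and RLE factors, a block for the title number, 2 other filters, DESeq2 1.42.0, limma-voom (limma 3.58.1) with and without quality weights, and each library left out. Leaving out chow replicates 5 and 8 together, the exact test of each gene, and the alternatives for list medians and genes outside the 7 were added after seeing the data. Figures were drawn with matplotlib 3.10.9 in Python 3.11.15.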

Additional observations from a re-analysis of the deposited data

Results flagged for a closer look

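A library standing far from the other 3 of its diet was looked for in 66 sets of values, by the gap to the nearest library over the whole range, against Dixon's critical value for 4 samples. It was found in 2 sets, both among the 14 sets of the 7 genes, and chance gives it in about 5% of sets. Lss in chow replicate 1 was at 34.8 CPM, against 43.4 to 44.0 CPM in the other 3 chow libraries, a ratio of 0.943. Cyp51 in high fat replicate 5 was at 75.3 CPM, against 62.7 to 64.2 CPM in the other 3 high fat libraries, a ratio of 0.886.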

How the results depend on the processing

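Among recomputed log2 fold changes of the 7 genes, 114 kept their direction and their side of the threshold and 5 reversed. Leaving out chow replicates 5 and 8 together gave -0.036 for Sqle and 0.078 for Idi1. Idi1 ranged from -0.17 to 0.11 over single libraries left out, and was above 0 in the 3 cases given with that gene. Outside the 7, Mvk was 0.043 with quality weights and Msmo1 was -0.042 without chow replicates 5 and 8. Cyp46a1 was -0.023 with upper-quartile factors, -0.24 without chow replicates 5 and 8, and -0.091 to 0.19 over single libraries left out. The cause was not tested. The count of genes called by edgeR ranged from 0 to 116 over single libraries left out, with the 116 reached without chow replicate 2, and 0 of the 7 genes were called there. The median of the 7 was lowest at -0.14, with high fat replicate 5 left out, and highest at -0.0082, with chow replicate 2 left out. With the title number as a replicate block, 0 genes were called, 572 had an unadjusted p under 0.05, Insig1 had -0.37 (edgeR adjusted p = 0.793), and the median of the 7 was -0.068. The replicate block changed no call. Upper-quartile factors shifted the median of all genes to -0.051. Medians of the other 7 lists moved by at least the SD of the list score within a diet in 8 cases, in the synthesis and sterol sensing lists, and by less in 111, which include the efflux median of -0.096 without chow replicate 1. Over all alternatives the efflux median ranged from -0.42 to -0.096, that of uptake from -0.11 to -0.011, that of esterification and oxysterol enzymes from -0.057 to 0.13, and that of fatty acid genes from -0.21 to -0.083. The intervals given rest on 4 libraries per diet, and the smallest difference detectable at this depth was not computed. A gene that was not called may still differ between the diets.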
